A study of Mus musculus with 6 samples.

Results

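Genes of respiratory complex I were followed in microglia of amyloid-bearing mice with and without interleukin-3. Members were all rows whose symbol begins with Nduf and 1 of the letters or pairs a, ab, af, b, c, s or v, and which had at least 1 CPM (reads of a gene per 1000000 counted reads of its library) in at least 3 of the 6 libraries. Of 20129 genes in the table, 42 matched the symbol and 41 passed this filter. They comprised 36 nuclear-encoded subunits, 4 assembly factors (Ndufaf1 to Ndufaf4) and Ndufa4, whose product is now counted with complex IV. Just inside the filter lay Ndufb4, at 1.71 to 3.61 CPM across the libraries. Its only matching row outside was Ndufa4l2, a paralogue of Ndufa4 known from hypoxic cells, with 0 reads in every 5xFAD library and counts of 3, 5 and 17 in the Il3-/-5xFAD libraries (replicates 1, 2 and 3).

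The study profiled microglia sorted as live CD45+ CD11b+ cells from the brains of C57BL6/J mice aged 5 months. The controls were 5xFAD mice (replicates 4, 5 and 6), which carry mutant human transgenes for the amyloid precursor protein and presenilin under the neuronal Thy1 promoter and deposit amyloid. They were compared with 5xFAD mice that lack interleukin-3 (Il3-/-5xFAD, replicates 1, 2 and 3). Every animal carried the 5xFAD transgenes, and each library was a pool of 2 male and 2 female mice. Whether pools shared litters is not stated, so the p-values measure the spread between 3 pools per group. The gate also admits other myeloid cells of the brain.

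Complex I, the NADH:ubiquinone oxidoreductase, is the entry point for most electrons of the mitochondrial respiratory chain. Its matrix arm oxidises NADH and passes electrons along iron-sulfur clusters to ubiquinone, and its membrane arm pumps protons. Core subunits shared with bacteria carry out catalysis, accessory subunits surround and stabilise them, and assembly factors build the enzyme without staying in it. The proton-pumping core of the membrane arm is encoded by mitochondrial DNA. The deposited table holds 0 rows with the mt- prefix of those genes, so they were not analysed here.

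For the targeted gene, Il3, the 5xFAD libraries held 54, 61 and 29 reads (replicates 4, 5 and 6), and each Il3-/-5xFAD library held 0, which allows up to 0.0909 to 0.107 CPM (3 reads). Library totals ran from 27970850 to 37605490 reads, and every member had at least 51 reads in each library. The 8 microglial markers checked were all present, at a summed 33059 to 35102 CPM in 5xFAD and 34588 to 37869 CPM in Il3-/-5xFAD. Of these, 3 were higher in Il3-/-5xFAD without overlap (37.5%, against 9.65% of all tested genes) and 5 overlapped. Markers of several other cell types differed between the groups, and the summed levels of others overlapped. All 9 neutrophil markers were lower in Il3-/-5xFAD without overlap, with summed levels of 1166 to 3095 CPM in 5xFAD and 204 to 786 CPM in Il3-/-5xFAD, and no marker was at 0 in all libraries. Summed lymphocyte markers were at 78.6 to 134 CPM and 41.4 to 55.5 CPM, choroid plexus markers at 182 to 515 CPM and 63.1 to 130 CPM, and oligodendrocyte markers at 115 to 129.8 CPM and 92.3 to 100.5 CPM, without overlap in each case. Monocyte markers overlapped, at 98.8 to 235 CPM and 48.6 to 110 CPM. So did border-associated macrophage markers, at 84.0 to 107 CPM and 73.8 to 92.0 CPM, and the summed astrocyte, endothelial and neuron markers. The part of any of these cell types in the complex I values was not tested. In bulk RNA, fewer cells of a type and less RNA per cell cannot be told apart.

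Most complex I subunit transcripts had slightly lower levels in Il3-/-5xFAD, while the 4 assembly factors with Ndufaf symbols were split in direction. Of the 41 members, 36 had a negative log2 difference (Il3-/-5xFAD minus 5xFAD on the log2(CPM + 1) scale), against 50.1% of all 11900 tested genes. The median difference was -0.26 over the 36 subunits and 0.02 over the 4 assembly factors, beside 0.00 over all tested genes. After correction for transcript length the subunit median was -0.05, and 31 of the 36 subunits are among the shortest transcripts tested. Another 4 assembly factors, listed under older symbols, all had negative differences (median -0.20). None of these single-gene differences passed: limma called 0 of 41 members at an adjusted p under 0.05, where it called 0.882% of all tested genes (0.63% as lower). At an unadjusted p under 0.05 it counted 14 members lower and 0 higher, against 9.83% and 6.69% of all tested genes. The lowest limma adjusted p among them was 0.0904, for Ndufb8. By edgeR on the recovered reads 0 members passed, with either kind of scaling (0.294% of all tested genes were called lower with TMM factors), and by DESeq2 2 passed, Ndufb8 and Ndufb2, both lower (DESeq2 adjusted p of 0.0386 and 0.0481; 3.45% of its tested genes were called lower and 1.63% higher).

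In 13 members (31.7%) all 3 Il3-/-5xFAD libraries lay below all 3 5xFAD libraries, beside 11.5% among all genes tested and 22.9% in the shortest of 5 equal length bins of tested genes, which holds 31 of the 36 subunits. After correction for transcript length 1 member was so placed. The opposite was seen in 1 member, Ndufs1 (9.65% among all genes tested). Most of the overlap came from Il3-/-5xFAD replicate 3. Its level reached or passed the lowest 5xFAD library in 25 of the 41 members, which Il3-/-5xFAD replicates 1 and 2 did in 9 and 11. Il3-/-5xFAD replicate 1 was the lowest library for 22 members. Without Il3-/-5xFAD replicate 3, 28 members were lower without overlap (21.0% of all tested genes were, as fewer libraries separate more easily), and limma called 6, all lower: Ndufa2, Ndufa3, Ndufa6, Ndufa7, Ndufb8 and Ndufb9. Their log2 differences then ran from -0.62 (Ndufa2) to -0.44 (Ndufa6), with limma adjusted p from 0.0224 to 0.0493, and 3.12% of all tested genes were called lower.

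**Figure D1:**
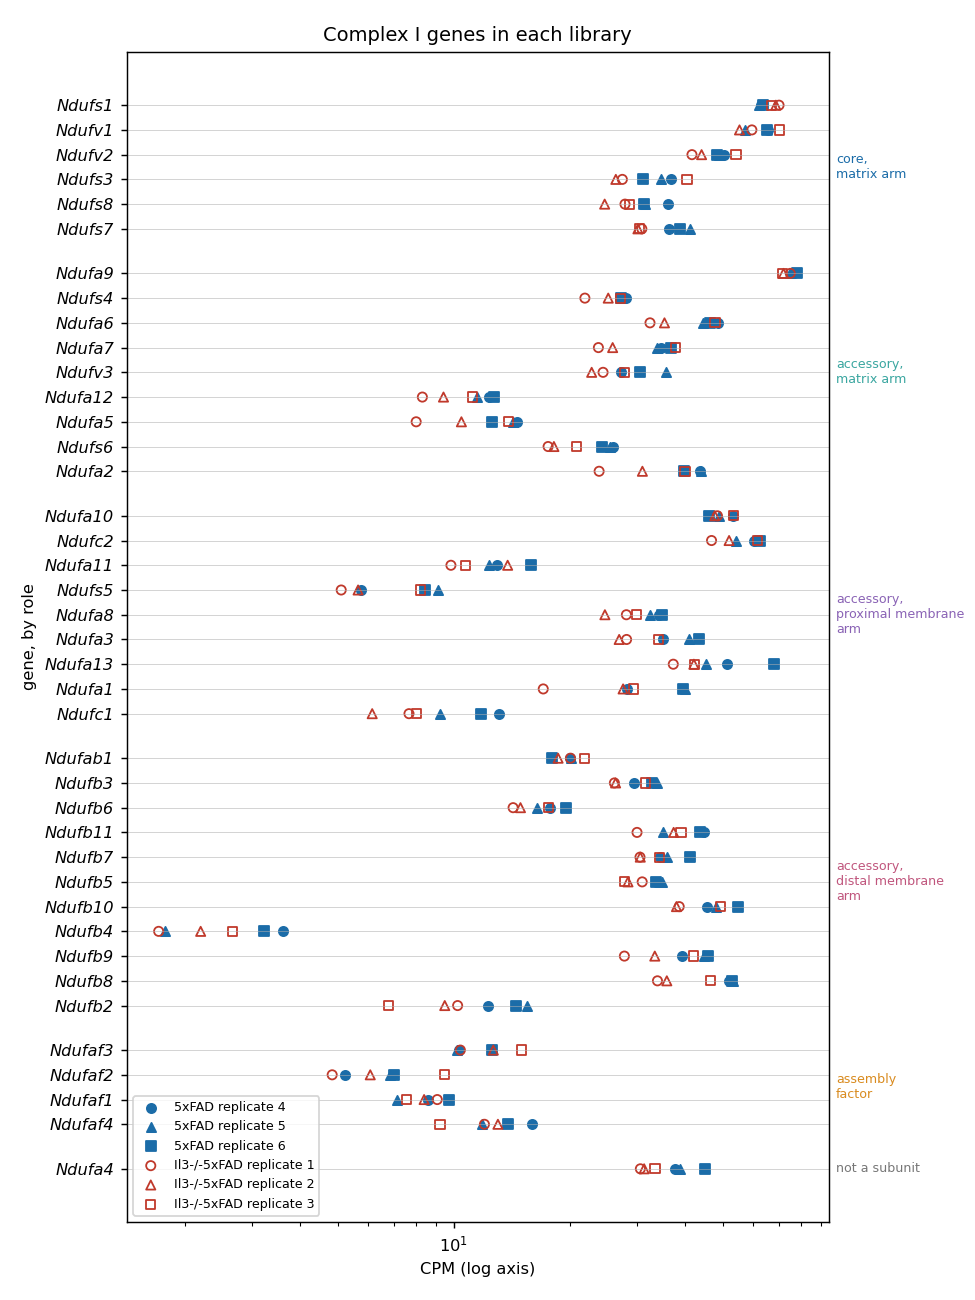
CPM on a log axis for complex I genes, grouped by role, with 1 point per library (filled blue, 5xFAD; open red, Il3-/-5xFAD). The open squares of Il3-/-5xFAD replicate 3 lie among the 5xFAD points in more genes than the open circles of replicate 1, as for Ndufa2 (39.9 and 23.9 CPM).

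The promoters of members were examined for letters they share, because their transcripts tended to one side. RefSeq promoters (GRCm38.p6, 250 bases before to 50 bases after the transcription start) were found for 37 of the 41 members, 39 promoters in all. Motifs were sought on both strands, and matches are descriptions of letters, not of binding. The letters of NRF1, a nuclear respiratory factor (GCGCA and GCGC parted by any 1 base), occurred in 23.1% of member promoters, 10.2% of promoters of tested genes and 4.6% of all 32851 promoters. Those of YY1 (AANATGGCG) occurred in 17.9%, 5.16% and 2.38%. The ETS core (CCGGAAG) was in 12.8%, 17.9% and 8.86%, the Sp1 box (GGGCGG) in 51.3%, 62.0% and 35.7%, and the NF-Y box (CCAAT) in 33.3%, 37.5% and 37.4%. NRF1 and YY1 letters were thus more frequent in member promoters than among the tested genes, and the other 3 motifs were less frequent. Promoters of the genes with symbols of complexes II to V held the NRF1 letters in 27.0% and the YY1 letters in 13.5%. The motifs did not sort the members by overlap. Of the 7 members with YY1 letters 3 were lower without overlap and 4 overlapped, and of the 30 members without them 10 were lower without overlap and 20 overlapped. Of the 8 with NRF1 letters 2 were lower without overlap. Among the 4 with none of the 5 motifs, Ndufb5 and Ndufa4 were lower without overlap. The share lower without overlap was 11.5% among all tested genes and 22.9% in the shortest length bin.

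To show where the YY1 letters lie, promoters are printed for the 3 YY1 members that were lower without overlap (Ndufs6 at chr13:73328433-73328732 on the minus strand, Ndufs7 at chr10:80249199-80249498 on the plus strand and Ndufc1 at chr3:51408906-51409205 on the minus strand), beside Ndufv1 (chr19:4012706-4013005, minus strand), which holds none of the 5 motifs. They were chosen with their levels known, so the set shows no link between motif and level. They are written 5′ to 3′ with matches to the 5 motifs in capitals. In Ndufs6 the capitals mark NF-Y, NRF1 and YY1 in that order, and in Ndufs7 and Ndufc1 they mark YY1 alone. The YY1 match begins 34, 25 and 23 bases after the start in Ndufs6, Ndufs7 and Ndufc1.
Ndufs6: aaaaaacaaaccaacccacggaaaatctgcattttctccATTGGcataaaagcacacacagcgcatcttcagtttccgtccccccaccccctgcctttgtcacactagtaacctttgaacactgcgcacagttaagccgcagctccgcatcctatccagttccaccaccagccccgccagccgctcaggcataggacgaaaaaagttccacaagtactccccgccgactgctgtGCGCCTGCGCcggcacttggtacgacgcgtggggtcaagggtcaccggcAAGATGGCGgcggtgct
Ndufs7: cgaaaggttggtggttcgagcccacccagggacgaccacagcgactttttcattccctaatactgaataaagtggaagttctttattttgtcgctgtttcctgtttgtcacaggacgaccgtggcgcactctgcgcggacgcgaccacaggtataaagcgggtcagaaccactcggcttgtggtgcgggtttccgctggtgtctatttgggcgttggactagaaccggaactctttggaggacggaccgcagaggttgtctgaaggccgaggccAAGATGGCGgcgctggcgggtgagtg
Ndufc1: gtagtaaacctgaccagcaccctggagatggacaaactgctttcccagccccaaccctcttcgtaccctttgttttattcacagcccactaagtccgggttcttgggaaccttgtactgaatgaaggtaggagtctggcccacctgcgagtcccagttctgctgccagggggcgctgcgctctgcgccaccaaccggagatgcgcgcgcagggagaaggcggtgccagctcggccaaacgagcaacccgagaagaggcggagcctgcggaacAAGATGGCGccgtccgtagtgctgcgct
Ndufv1: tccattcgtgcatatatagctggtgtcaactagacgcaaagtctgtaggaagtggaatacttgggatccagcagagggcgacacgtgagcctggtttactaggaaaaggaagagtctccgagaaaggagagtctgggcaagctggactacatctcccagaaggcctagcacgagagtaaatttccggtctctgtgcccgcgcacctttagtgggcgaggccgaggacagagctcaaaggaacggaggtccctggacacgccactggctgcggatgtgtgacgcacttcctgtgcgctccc

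Core subunits of the matrix arm differed least among the subunits, and their members did not move alike. They also had longer transcripts, with a median of 1623 bases against 704 bases for accessory subunits. After length correction their median deviation from the 6-library mean averaged 0.00 in 5xFAD and -0.01 in Il3-/-5xFAD. For accessory subunits it averaged 0.03 and -0.02. The part of length in this contrast was not tested. Of the 7 core subunits, 6 had a negative difference, 2 were lower without overlap and 1 was higher without overlap, and the median was -0.08. Among all tested genes 11.5% were lower and 9.65% higher without overlap. Ndufv1, which binds NADH and the flavin cofactor, was at 65.7, 57.2 and 65.0 CPM in 5xFAD replicates 4, 5 and 6 and at 59.5, 55.3 and 70.2 CPM in Il3-/-5xFAD replicates 1, 2 and 3. The groups overlapped, with a log2 difference of -0.03 ± 0.11 (SE). Its iron-sulfur partner Ndufv2 was at 50.4, 48.8 and 48.3 CPM and at 41.6, 44.1 and 54.1 CPM, where Il3-/-5xFAD replicate 3 was the highest of all 6 libraries (-0.08 ± 0.11). Ndufs1, the largest iron-sulfur subunit, was at 62.9, 62.1 and 63.6 CPM in 5xFAD versus 70.0, 68.7 and 67.1 CPM in Il3-/-5xFAD. All 3 Il3-/-5xFAD libraries were higher, at a log2 difference of 0.12 ± 0.08 (limma adjusted p = 0.496).

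Ndufs7 carries the terminal iron-sulfur cluster, from which electrons pass to ubiquinone. It was at 36.2, 41.1 and 38.8 CPM in 5xFAD versus 30.8, 30.1 and 30.3 CPM in Il3-/-5xFAD. Its 3 Il3-/-5xFAD libraries lay close together and below every 5xFAD library (log2 difference -0.34 ± 0.11, limma adjusted p = 0.132). Ndufs8, another iron-sulfur subunit, was at 36.0, 31.4 and 31.3 CPM and at 27.9, 24.7 and 28.7 CPM, again without overlap (-0.27 ± 0.12, limma adjusted p = 0.276). Ndufs3, an early-assembling scaffold of the matrix arm, was at 36.7, 34.6 and 31.0 CPM and at 27.4, 26.4 and 40.4 CPM, so that Il3-/-5xFAD replicate 3 exceeded every 5xFAD library and replicates 1 and 2 lay below them (-0.14 ± 0.16). Of the 50-base stretches of its transcript, 35.8% also occur in transcripts of other genes, chiefly Gm12251 (35.5%), so the value of Ndufs3 is uncertain.

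All 9 accessory subunits of the matrix arm had negative differences, with a median of -0.30 and 2 members lower without overlap (22.2%). That share was 11.5% among all tested genes and 22.9% in the shortest length bin, where 74.0% of genes had negative differences. Ndufs6, a zinc-binding subunit added late in assembly, was at 25.9, 25.4 and 24.4 CPM in 5xFAD versus 17.6, 18.2 and 20.9 CPM in Il3-/-5xFAD. The groups did not overlap, at means of 25.2 ± 0.783 and 18.9 ± 1.75 CPM (SD, n = 3; log2 difference -0.40 ± 0.13, limma adjusted p = 0.134), and its promoter is the one above with NRF1 and YY1 letters together. Of the 50-base stretches of the Ndufs6 transcript 14.6% also occur in another gene, Ndufs6b. Ndufa2, a subunit with a thioredoxin-like fold, was at 43.7, 44.02 and 39.6 CPM and at 23.9, 30.9 and 39.9 CPM (-0.44 ± 0.16, limma adjusted p = 0.182). Here replicate 3 of Il3-/-5xFAD lay just above the lowest control while replicate 1 was well below. Ndufv3, at the tip of the arm, was at 27.3, 35.5 and 30.4 CPM and at 24.4, 22.8 and 27.7 CPM, with overlap in a single library (-0.30 ± 0.13, limma adjusted p = 0.289). Of the other 6, Ndufa12 was lower without overlap (-0.32), and Ndufa5, Ndufa6, Ndufa7, Ndufs4 and Ndufa9 overlapped, with differences from -0.36 (Ndufa5) to -0.07 (Ndufa9). Ndufs4, whose loss causes a Leigh-like encephalopathy in mice, was at 28.1, 27.2 and 27.3 CPM in 5xFAD versus 21.9, 25.2 and 27.2 CPM in Il3-/-5xFAD.

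Accessory subunits of the proximal membrane arm had a median difference of -0.29, and 4 of 9 were lower without overlap (44.4%). Among all tested genes 11.5% were, and in the shortest length bin 22.9%. Ndufc1, a small membrane subunit, was at 13.1, 9.23 and 11.8 CPM in 5xFAD versus 7.66, 6.14 and 8.003 CPM in Il3-/-5xFAD, the largest difference of this group (-0.58 ± 0.19, limma adjusted p = 0.152). Ndufa3, a single-pass membrane subunit, was at 35.0, 40.9 and 43.4 CPM and at 28.1, 26.9 and 34.1 CPM (-0.41 ± 0.13, limma adjusted p = 0.132). Ndufa13, also described as a regulator of cell death, was at 51.4, 45.1 and 67.9 CPM and at 37.2, 42.1 and 42.2 CPM (-0.41 ± 0.14, limma adjusted p = 0.161). In all 3 genes the highest Il3-/-5xFAD library lay under the lowest 5xFAD library. Ndufa8 was the fourth (-0.29). Ndufa1, a small membrane-anchored subunit encoded on the X chromosome, was at 28.3, 40.0 and 39.5 CPM and at 17.1, 27.6 and 29.3 CPM, with overlap (-0.54 ± 0.20). At the other end Ndufa10, which resembles nucleoside kinases, had a difference of 0.01, and Ndufc2, Ndufa11 and Ndufs5 lay between -0.26 and -0.15.

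Of the 11 accessory subunits of the distal membrane arm, 10 had negative differences and 4 were lower without overlap (36.4%), with a median of -0.22. The share lower without overlap was 11.5% among all tested genes and 22.9% in the shortest length bin. Ndufb8 had the lowest p of all members. Its levels were 51.9, 53.3 and 53.0 CPM in 5xFAD and 33.8, 35.8 and 46.4 CPM in Il3-/-5xFAD, means of 52.7 ± 0.730 and 38.7 ± 6.76 CPM (SD, n = 3; log2 difference -0.45 ± 0.12, limma adjusted p = 0.0904). The 5xFAD libraries lay close together, and the Il3-/-5xFAD libraries spread over a range below them. Of the 50-base stretches of its transcript 13.5% also occur in another gene, Gm20538. Ndufb2 was at 12.3, 15.5 and 14.5 CPM and at 10.2, 9.48 and 6.76 CPM, the largest difference of any member (-0.63 ± 0.19, limma adjusted p = 0.115). Here, unlike in most members, replicate 3 was the lowest Il3-/-5xFAD library. Of its 50-base stretches 24.4% occur in other genes, so its value is uncertain. Ndufb9, a LYR-motif protein, was at 39.1, 44.7 and 45.9 CPM and at 27.8, 33.3 and 41.9 CPM, with overlap (-0.34 ± 0.14, limma adjusted p = 0.259); 23.4% of its stretches are shared with Gm49356.

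The remaining distal subunits had smaller differences. Ndufb5 (-0.22) and Ndufb7 (-0.22) were lower without overlap, and Ndufb3, Ndufb4, Ndufb6, Ndufb10 and Ndufb11 overlapped, between -0.25 and -0.19. Ndufab1, the mitochondrial acyl carrier protein that also serves fatty acid and lipoate synthesis, was the exception, at 20.1, 20.2 and 18.0 CPM in 5xFAD and 20.1, 18.7 and 21.9 CPM in Il3-/-5xFAD (0.06 ± 0.13). Ndufa4, the complex IV protein that matches the symbol rule, was at 37.6, 38.8 and 45.0 CPM and at 30.6, 31.2 and 33.3 CPM, without overlap (-0.34 ± 0.11, limma adjusted p = 0.151).

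**Figure D2:**
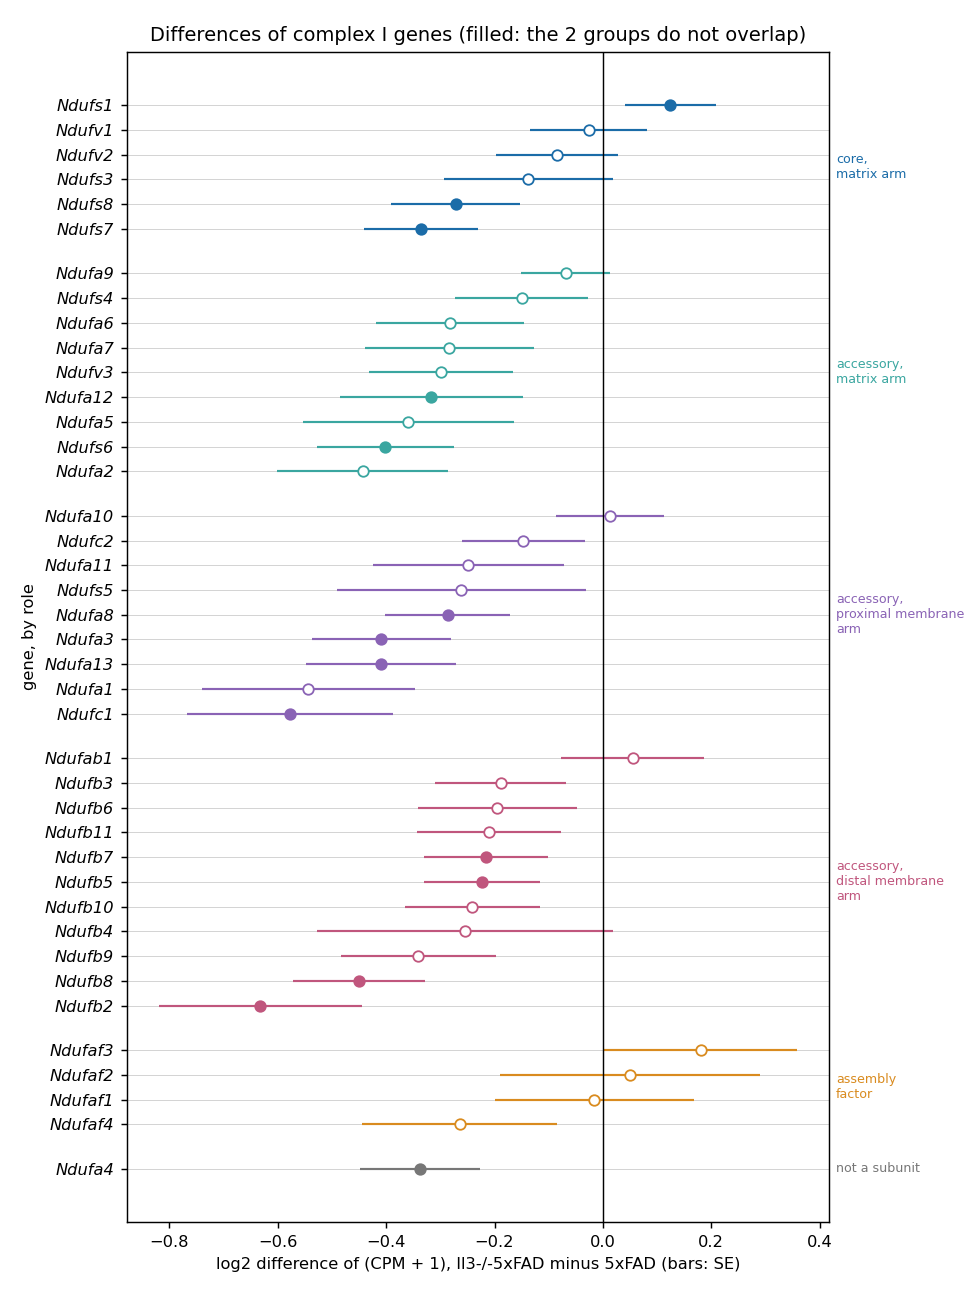
Log2 difference of (CPM + 1), Il3-/-5xFAD minus 5xFAD, with its SE for complex I genes by role, filled where the libraries of the 2 groups do not overlap. Accessory subunits lie mostly to the left of 0, from -0.63 (Ndufb2) to 0.06 (Ndufab1), and the assembly factors on both sides.

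The 4 assembly factors all overlapped between groups, 2 of them with positive and 2 with negative differences. Ndufaf3 and Ndufaf4 act together on the early ubiquinone-binding module. Ndufaf3 was at 10.3, 10.2 and 12.6 CPM in 5xFAD versus 10.4, 12.7 and 15.0 CPM in Il3-/-5xFAD (0.18 ± 0.18, limma adjusted p = 0.665). Its partner Ndufaf4 was at 15.9, 11.8 and 13.9 CPM and at 12.02, 13.03 and 9.22 CPM, in the opposite direction (-0.26 ± 0.18, limma adjusted p = 0.502). Neither difference passed, and for both genes the libraries of the 2 groups interleaved. Ndufaf1, which works on the membrane arm with Acad9 and Ecsit, was at 8.58, 7.11 and 9.73 CPM and at 9.07, 8.38 and 7.55 CPM (-0.02 ± 0.18). Ndufaf2, a paralogue of Ndufa12 that acts late on the NADH-binding end, was at 5.22, 6.83 and 6.99 CPM and at 4.84, 6.07 and 9.46 CPM (0.05 ± 0.24). Il3-/-5xFAD supplied both the lowest and the highest library for Ndufaf2.

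Per library, the median deviation of the 36 subunits from their 6-library mean on the log2(CPM + 1) scale was 0.10, 0.08 and 0.17 in 5xFAD replicates 4, 5 and 6 and -0.23, -0.18 and 0.05 in Il3-/-5xFAD replicates 1, 2 and 3. For the assembly factors the same measure was -0.07, -0.13 and 0.12, then -0.11, 0.03 and 0.10. Subunits minus assembly factors came to 0.17, 0.21 and 0.04 in the 5xFAD libraries and -0.12, -0.21 and -0.05 in the Il3-/-5xFAD libraries. That contrast was positive in each 5xFAD library and negative in each Il3-/-5xFAD library. It rests on 4 assembly factors with few reads. After length correction its sign no longer followed the groups. The subunit median deviations then were 0.03, -0.002 and 0.05 in 5xFAD and -0.01, -0.06 and 0.03 in Il3-/-5xFAD. Those of the assembly factors were -0.13, -0.15 and 0.11, then -0.09, 0.08 and 0.07. In 5xFAD replicate 6 the subunits lay below the assembly factors, and in Il3-/-5xFAD replicate 1 above them. The summed level of all subunits was 1345, 1324 and 1382 CPM in 5xFAD and 1091, 1133 and 1298 CPM in Il3-/-5xFAD. Over the same libraries the summed neutrophil markers were at 1166, 3095 and 2136 CPM and at 734, 204 and 786 CPM, and their part in the subunit values was not tested.

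**Figure D3:**
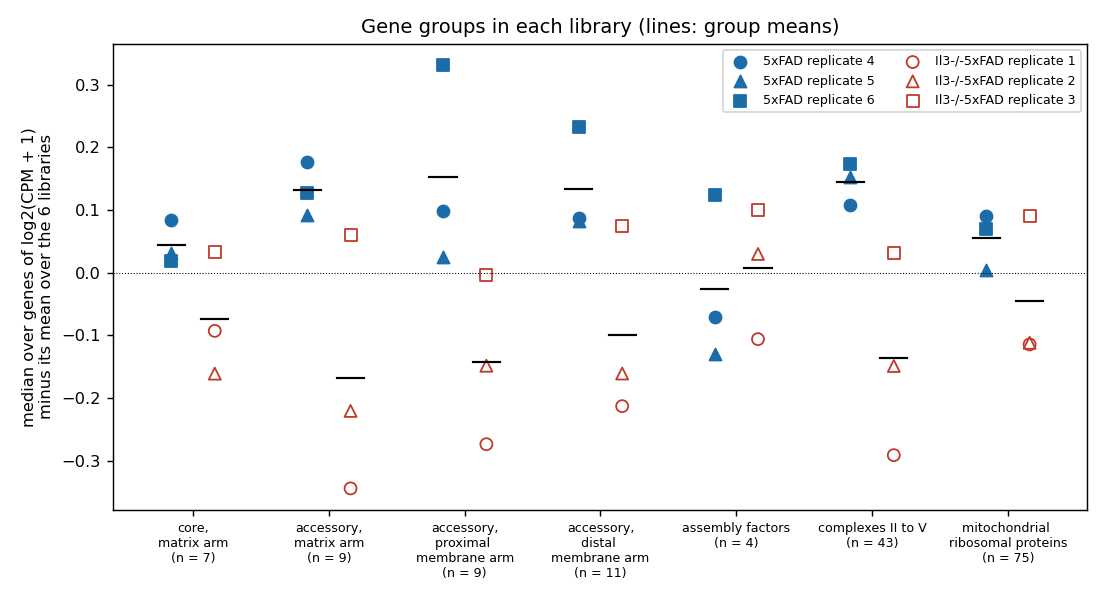
Median over the genes of each group of log2(CPM + 1) minus the gene's 6-library mean, 1 point per library, with lines at group means; complexes II to V are the 43 genes drawn by symbol. For accessory subunits of all arms Il3-/-5xFAD replicates 1 and 2 are the lowest, and for the assembly factors the groups interleave.

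Further assembly factors stand in the table under older symbols, outside the rule. Ndufaf5 (2310003L22Rik), which hydroxylates Ndufs7, Ndufaf6 (2310030N02Rik), Ndufaf7 (2410091C18Rik), a methyltransferase, and Ndufaf8 (1810043H04Rik), a partner of Ndufaf5, had log2 differences of -0.06, -0.40, -0.02 and -0.35, and all 4 overlapped between groups. Their median was -0.20, beside 0.02 for the 4 with Ndufaf symbols. Of the other genes known to serve complex I assembly, 13 of 14 were tested, with a median of -0.05, 8 negative and 4 lower without overlap (30.8%). Among all tested genes 50.1% were negative and 11.5% lower without overlap. Limma, edgeR and DESeq2 each called 0 of the other assembly genes. At an unadjusted limma p under 0.05 there was 1 lower and 0 higher, against 9.83% and 6.69% of all tested genes. Chchd4, which imports small cysteine-rich proteins such as Ndufs5, Ndufa8 and Ndufb7 into the intermembrane space, was at 14.1, 13.7 and 15.6 CPM in 5xFAD versus 10.6, 11.04 and 12.2 CPM in Il3-/-5xFAD. It was lower without overlap (-0.33 ± 0.15, limma adjusted p = 0.29998). Nubpl, which delivers iron-sulfur clusters to complex I, was at 9.62, 9.57 and 8.56 CPM and at 7.02, 7.99 and 5.34 CPM (-0.41 ± 0.19, limma adjusted p = 0.313), again without overlap. Of 10 tested regulators of respiratory genes limma, edgeR and DESeq2 each called 0, limma had 0 at an unadjusted p under 0.05, and the median was 0.09. The 2 with the lowest p were the mitochondrial RNA polymerase gene Polrmt (0.18 ± 0.11) and the coactivator gene Ppargc1b (-0.30 ± 0.26).

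Complex I subunits are encoded by short transcripts, and the shorter ones had the lower values. The 36 subunits had a median annotated transcript length of 812 bases (GENCODE), against 2929 bases over tested genes, and their log2 differences were ordered with length (Spearman's rho 0.69 across 36 genes that share the same libraries, which is a description). Over 11765 tested genes with a length, rho was 0.31. Of the subunits, 31 were in the shortest of 5 equal length bins of tested genes (up to 1669 bases), and all 31 had negative differences, with a median of -0.28. In that bin as a whole the median was -0.15, 74.0% of genes were negative, and 22.9% were lower without overlap, against 12 of the 31 subunits (38.7%). The 5 longer subunits, among them Ndufs1, Ndufa10 and Ndufab1, lay between -0.15 and 0.12, and none was lower without overlap. After each library's trend with transcript length was removed, the median difference of the subunits was -0.05 instead of -0.26, 23 of 41 members were negative instead of 36, and 1 member, Ndufb8, was lower without overlap instead of 13. The assembly factors then had a median of 0.17, and subunits minus assembly factors was -0.22, against -0.27 without the correction. Per library, the sign of that contrast then no longer followed the groups. Length and membership go together here, since 35 of the 41 members lie in the shortest bin. It holds 3 of the 4 assembly factors as well as the 31 subunits. The median length of the assembly factors was 1469 bases, against 812 bases for the subunits. The part of length in the contrast between the 2 classes was not tested.

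**Figure D4:**
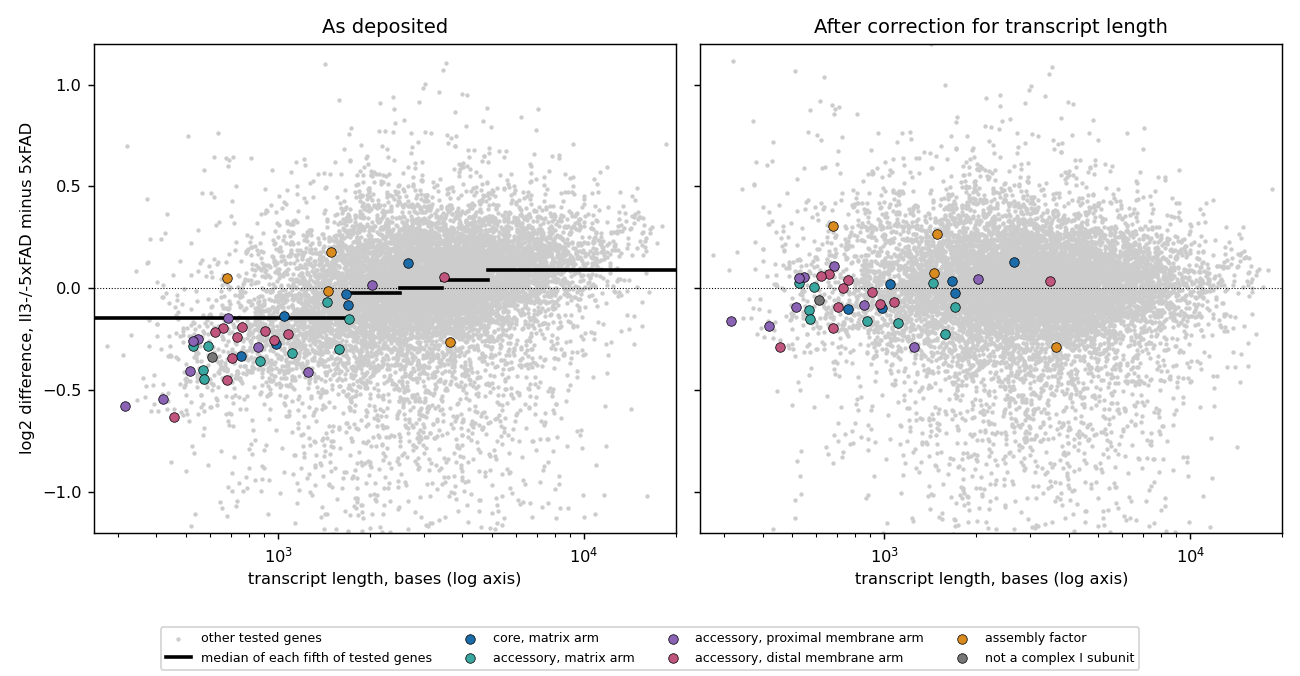
Log2 difference (Il3-/-5xFAD minus 5xFAD) against annotated transcript length on a log axis, as deposited (left, with medians of 5 equal length bins of tested genes) and after removal of each library's length trend (right); coloured points are complex I genes and grey points other tested genes. On the left the subunits descend toward short lengths, with a median of -0.26, and on the right their median is -0.05; grey points beyond 1.2 on either side are not drawn.

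Genes of the other respiratory complexes also had mostly negative differences. Of 43 tested genes with symbols of complexes II to V, 42 had negative differences and 20 were lower without overlap (46.5%), with a median of -0.26. That list, drawn by symbol, holds 3 genes that are not subunits (Cox4nb, now Emc8; Atp5s, now Dmac2l; and Atp5sl, now Dmac2, a complex I assembly gene). Without them, a list made after the data were seen, all 40 were negative and 20 were lower without overlap, with a median of -0.30. Limma and edgeR called 0 of them and DESeq2 called 7 (3.45% of its tested genes were called lower and 1.63% higher). At an unadjusted limma p under 0.05 there were 20 lower and 0 higher, against 9.83% and 6.69% of all tested genes. Among subunits only, complex IV had 11 of 12 without overlap and a median of -0.40. Lowest in p were Cox7a2l, which takes part in joining complexes into supercomplexes (149 ± 13.1 and 107 ± 13.6 CPM, SD, n = 3; -0.48 ± 0.11, limma adjusted p = 0.0547) and Cox6a1 (-0.41 ± 0.10, limma adjusted p = 0.0728). In complex III, Uqcr10 and Uqcrh had the lowest p (-0.59 ± 0.14 and -0.62 ± 0.16). Complex II had a median of -0.18 over 4 genes, and complex V of -0.26 over 15 subunits (-0.17 over 17 genes by symbol). After length correction the median deviations of the 40 subunits of complexes II to V were 0.02, 0.06 and 0.07 in 5xFAD and -0.13, -0.05 and 0.01 in Il3-/-5xFAD, without overlap. Those of the complex I subunits were 0.03, 0.00 and 0.05, then -0.01, -0.06 and 0.03, with overlap. Proteins of the mitochondrial ribosome, also encoded in the nucleus, had a median of -0.11, and 13 of 75 were lower without overlap (17.3%), a share between those of all tested genes (11.5%) and of the shortest length bin (22.9%). Whether complex I differed from these groups was not tested.

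Levels per annotated length were higher for most subunits than for the assembly factors, with Ndufab1 inside the assembly factors' range and Ndufb4 below it. The subunits had a median of 36.5 CPM per kb over the 6 libraries and ran from 2.61 (Ndufb4) to 82.2 CPM per kb (Ndufc2), while the 4 assembly factors ran from 3.48 (Ndufaf4) to 9.69 CPM per kb (Ndufaf2). After Ndufc2 the highest were Ndufa1 at 72.3 and Ndufa6 at 71.9 CPM per kb, and the median of the core subunits was 31.3 CPM per kb. The 4 lowest subunits were Ndufb4, Ndufab1, Ndufa12 (9.83 CPM per kb) and Ndufs5 (13.4 CPM per kb). Of those, 3 share sequence with other genes, Ndufb4 37.0% of its 50-base stretches, Ndufa12 26.2% and Ndufs5 41.2%, so their levels are uncertain. The level of Ndufab1 (5.70 CPM per kb) rests on an annotated transcript of 3479 bases. In all, 25 members shared no such stretch with another gene and 6 shared over 20%. Over the 30 subunits that shared 20% or less, the median log2 difference was -0.24 and 10 were lower without overlap. That share was 11.5% among all tested genes and 22.9% in the shortest length bin.

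By RefSeq the 41 members were spread over 16 chromosomes, with at most 5 on any 1. None (0) lay on chromosome 11, which carries Il3, and 2 lay on the X chromosome (Ndufa1 and Ndufb11).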

How the data were processed

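Polyadenylated RNA of 6 pools of sorted microglia was sequenced with a directional kit, per the labels' protocols. The authors deposited CPM values per gene. Per the submitters' processing notes, STAR, HTSeq and edgeR were used with the genome build mm9; for annotation, filters and counting mode nothing is given in the sources used here. Every value was a whole multiple of 1 read (100% within 0.01 reads), so reads were recovered (27970850 to 37605490 per library, 1 read being 0.0266 to 0.0358 CPM). Replicates differed by more than sampling noise (a chi-square of at least 22.1 per degree of freedom). The main test was limma 3.58.1 in R 4.3.3 (two-sided, with a mean-variance trend) on log2(CPM + 1), which understates changes of low genes, over 11900 genes with at least 1 CPM in 3 libraries, Benjamini-Hochberg adjusted and called under 0.05. Alternatives were other pseudocounts (0.25, 5), filters (none, mean of 5 CPM), rescalings and limma settings, a lowess correction for transcript length (span 0.3), each library left out, and edgeR 4.0.16 (60 genes called with TMM) and DESeq2 1.42.0 (605 called) on the recovered reads. The limma step was tested on simulated data. Genes named in full were the core subunits, the assembly factors, in each arm the 3 accessory subunits of lowest p, and 2 per other list; Ndufs4, Ndufa1 and Ndufab1 were added after their values were seen. The counts cover all 41 members, and 1 of them is not reported here by itself. Members and lists were chosen with earlier results of these data known. Lengths and 50-base stretches are from GENCODE vM21 and promoters from RefSeq, both GRCm38. Because the deposited files use mm9, genes were joined by symbol and never by position.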

Additional observations from a re-analysis of the deposited data

How the results depend on the processing

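No paired analysis was possible because the 2 groups share no replicate number. Of 18 alternatives, the subunit median log2 difference (-0.26) stayed negative in all, within -0.34 to -0.18 when 1 library was left out; the length correction gave -0.0470, and the assembly-factor median then was 0.172. Members called numbered 2 by DESeq2, 0 to 6 without 1 library (6 without Il3-/-5xFAD replicate 3) and 0 in the other settings. Members lower without overlap numbered 13 (11.5% of all tested genes were), with 1 after length correction and 14 to 28 without 1 library. Fewer libraries separate more easily. Without Il3-/-5xFAD replicate 3, which gave the 28, 21.0% of all tested genes were lower without overlap. Genes called in the whole table numbered 105, with 8 under no filter, 68 at a mean of at least 5 CPM, 65 after median-ratio rescaling, 54 after length correction, 10 without the trend, 60 and 69 by edgeR with TMM factors and with library totals, 605 by DESeq2, and 15 (without 5xFAD replicate 6) to 605 (without Il3-/-5xFAD replicate 3) without 1 library. The cause of these differences between settings was not tested.

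For 4 named genes the difference changed sign. Ndufaf1 was at 0.0842 after quantile normalization, 0.0769 after length correction and -0.123 to 0.0792 without 1 library. Ndufv1 was at 0.0380 after length correction and -0.122 to 0.0476 without 1 library. Ndufs3 was at 0.0227 after length correction, and Ndufaf2 at -0.185 to 0.236 without 1 library. With at least 51 reads per member and library and 3 pools per group, the spread between pools limits the precision.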
